A study of Mus musculus with 12 samples.

Results

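The comparison described here set 3 RNA-seq libraries of mouse mandibular condyle cells infected with an adenovirus carrying Cre recombinase and EGFP (AdV-CRE-EGFP) against 3 libraries of cells infected with an adenovirus carrying EGFP alone (AdV-EGFP), all collected on day 0 in medium without inducing additives. Infection and induction state in the sample labels picked these 6 libraries out of the 12 of the series, and all genes of the table were examined. All cells came from condyles of Plagl1 fl/fl mice at postnatal day 1.5, in which Plagl1 is flanked by loxP sites, and every culture received virus at a multiplicity of infection of 100, the controls included. The other 6 libraries came from the same 2 infections after 4 days with β-glycerophosphate (5 mM), ascorbic acid (50 µg/ml) and dexamethasone (100 nM) (labelled OI in front of the virus name), and they are used only to show where day 0 differed. Cells without the floxed allele that received the Cre virus are not among the samples analysed here, so an effect of Cre or of the virus preparation and an effect of recombination at Plagl1 cannot be told apart. Nothing in the labels states that replicates were grown or taken separately, so p-values reflect only library-to-library spread, which could be technical.

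PLAGL1 is a zinc finger transcription factor encoded by an imprinted gene that is expressed from the paternal allele, and it is known as a regulator of other imprinted genes and of growth. The condyle of the mandible grows by a secondary cartilage and by bone formed beneath it, and its mesenchymal cells can mature into osteoblasts in medium with ascorbate, phosphate donor and glucocorticoid. Cre recombinase removes the DNA between a pair of loxP sites, and an adenovirus delivers it without integrating into the genome. Day 0 is therefore the state of the infected cells before any osteogenic stimulus.

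The 6 libraries held between 15316989 and 16706751 counts, and 13670 genes of the 22063 in the table passed the filter on low counts. Levels are given as CPM, counts scaled to the library's TMM-adjusted depth, which are not compared between genes. Fold changes are log2 values from edgeR's quasi-likelihood fit, as AdV-CRE-EGFP minus AdV-EGFP, with p-values adjusted over all tested genes by the method of Benjamini and Hochberg. A gene was called when its adjusted p was under 0.05 and its change was at least 2-fold. Levels of single libraries are in the order of replicates 1 to 3 with the AdV-EGFP group first, and a value in brackets beside a gene is its log2 change. A principal component analysis of the 6 libraries separated the infections on its first component (53.6% of the variance). The second component (12.5%) set AdV-EGFP replicate 1, with a score of -25.7, apart from the other two AdV-EGFP libraries at 14.1 and 10.6. Mesenchymal genes identified the cells in both groups, with summed levels of 26430 to 27060 CPM over the 16 markers in the AdV-EGFP libraries and 23970 to 24910 CPM in the AdV-CRE-EGFP libraries.

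The floxed gene itself was not lower. Plagl1 (chr10:12936248-13007438, plus strand, GRCm39) stood at 386, 426 and 390.2 CPM in AdV-EGFP replicates 1 to 3 and at 581, 593 and 591 CPM in AdV-CRE-EGFP replicates 1 to 3. All libraries labelled AdV-CRE-EGFP thus lay above all AdV-EGFP libraries, with a log2 change of 0.55 (SE 0.04, edgeR adjusted p = 1.8e-10). In the deposited FPKM, which is scaled for transcript length, the mean was 92.5 ± 2.1 (SD, n = 3) against 138 ± 4.7 (n = 3). The counts cover the whole gene and the sources used here do not name the deleted exon, so this level is no measure of recombination, and every direction below is that between the labels, written as Cre-labelled and EGFP-labelled. The relatives of Plagl1 did not pass the test: Plag1 changed by 0.17 (adjusted p = 0.34) and Plagl2 by -0.05 (adjusted p = 0.76), at 24.4, 25.5 and 30.9 CPM in the EGFP-labelled and 25, 27.4 and 25.9 CPM in the Cre-labelled libraries. After induction Plagl1 was level between the infections, at 391 ± 11 against 385 ± 18 CPM, and its day 0 change exceeded the induced one by 0.58 (adjusted p = 6.2e-08).

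In total 356 genes (2.60% of those tested) were higher and 76 (0.556%) were lower in the Cre-labelled libraries. At an adjusted p under 0.05 with no fold threshold the counts were 2161 higher (15.8%) and 1847 lower (13.5%), and the median change over all tested genes was -0.01. This balance turned with the scaling, to 1974 higher and 2044 lower with median-of-ratios factors, 1725 and 2476 with total counts alone and 2001 and 2239 without the filter on low counts. The shares of all tested genes given here are the background for the counts of list members below. Of the called genes, 346 of 356 and 68 of 76 had no overlap between the 3 libraries and the 3, as did 2899 higher and 2666 lower genes of all 13670 tested. The genes higher in the Cre-labelled group also changed more, with 125 past a 4-fold change against 7 of those lower. Most called genes were of low level: 251 of the 356 (70.5%) and 71 of the 76 (93.4%) were under 10 CPM in their higher group, against 33.5% of all tested genes. Only 5 called genes with at least 10 CPM were lower, namely Tnfsf11, Cxcl14, Vdr, Ppbp and Tnn, whereas 105 were higher. Among the genes called higher, 14 had no count in any EGFP-labelled library, and 1 called lower had none in any Cre-labelled library. Of all tested genes, 38 had no count in the EGFP-labelled group only and 17 in the Cre-labelled group only.

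**Figure D1:**
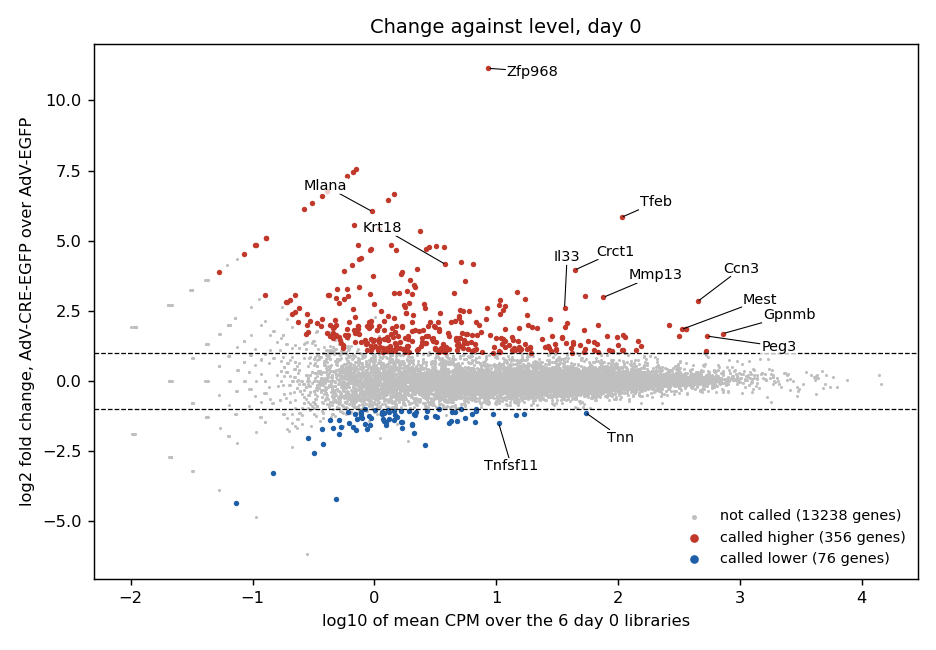
Log2 change on day 0 (Cre-labelled minus EGFP-labelled, vertical axis) of each tested gene against the log10 of its mean CPM over the 6 libraries (horizontal axis), with called genes coloured; 11 genes at 0 in all 6 libraries are not drawn. The 356 genes called higher reach larger changes than the 76 called lower, and Tfeb stands apart at 5.83.

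Among called genes with at least 10 CPM, Tfeb had the largest change apart from Zfp968, which is uncertain and described below. TFEB is a basic helix-loop-helix factor of the MiT family, which also holds MITF, TFE3 and TFEC; its members bind E-box sequences and are known for driving lysosome biogenesis, autophagy and, through MITF, the pigment cell programme. Tfeb (chr17:48047837-48103348, plus strand, GRCm39) was at 2.71, 4.47 and 3.83 CPM in the EGFP-labelled and 199, 226 and 204 CPM in the Cre-labelled libraries. The groups lay far apart, with a log2 change of 5.83 (SE 0.10, edgeR adjusted p = 2.4e-23). In FPKM, which allows levels of different genes to be set side by side, Tfeb went from 1.58 ± 0.38 to 89.6 ± 6.0 (SD, n = 3 and 3), while Tfe3 was at 30.8 ± 3.3 and 24.9 ± 1.9. Tfeb was thus far below Tfe3 in the EGFP-labelled libraries and above it in the Cre-labelled ones. Tfe3 fell slightly (-0.15). Mitf (2.1 and 1.8 FPKM) and Tfec (1.2 and 1.8 FPKM) stayed low in both groups, and neither passed the test.

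Genes of the pigment cell and MiT list were among those that rose: 9 of 21 tested members were called higher and none lower, with a median change of 0.77 against -0.01 over all genes. Tfeb itself is 1 of the 9. Gpnmb, a transmembrane glycoprotein of melanosomes, macrophages and bone cells, was at 341, 352 and 345 CPM against 1093, 1125 and 1122 CPM. Its groups were far apart relative to their spread, with a change of 1.69 (SE 0.03). Kit, the receptor of stem cell factor, rose from 0.129, 0.319 and 0.123 CPM to 5.35, 4.81 and 5.97 CPM (4.77, SE 0.33). The melanocyte channel gene Trpm1 rose by 3.20 (SE 0.43), from a mean of 0.362 ± 0.31 to 3.36 ± 0.84 CPM. Mlana, which encodes a melanosomal antigen, had 1 count in all EGFP-labelled libraries together and 89 in the Cre-labelled ones, a ratio of 86.7 with an exact 95% interval of 15.2 to 3463 that covers counting error only. Tyrp1, a melanin synthesis enzyme, rose by 3.07, and Fnip2, Rab27a and Mreg by 1.32, 1.17 and 1.14. The defining melanin enzymes Tyr and Dct were at 0 to 2 counts in every day 0 library.

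The promoters of 2 of these genes hold the letters TCATGTG, the form of E-box that MiT factors are known to bind in pigment genes. RefSeq promoter windows (250 bases before to 50 after a gene start, GRCm38.p6) were found for 317 of the 432 called genes. TCATGTG, searched on both strands, was in the windows of 14 of 259 genes called higher (5.41%), none of 58 called lower, 2.55% of the tested genes and 4.31% of all symbols. In the pigment cell and MiT list, 2 of 8 windows of called members held TCATGTG. So did 3 of 17 windows of tested members, with that of Slc24a5, which was not called, as the third. The windows of Tyrp1 (chr4:80834116-80834222, plus strand), Trpm1 (chr7:64153643-64153749, plus strand) and Ppargc1a (chr5:51567829-51567935, minus strand) are shown because these genes were called higher and hold it. The capitals mark the match, which lies 47, 142 and 160 bases before the start, and in Ppargc1a on the opposite strand.
Tyrp1: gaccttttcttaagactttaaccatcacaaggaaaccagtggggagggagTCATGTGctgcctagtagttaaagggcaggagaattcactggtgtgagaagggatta
Trpm1: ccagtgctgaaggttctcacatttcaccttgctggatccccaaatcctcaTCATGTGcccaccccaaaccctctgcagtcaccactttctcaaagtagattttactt
Ppargc1a: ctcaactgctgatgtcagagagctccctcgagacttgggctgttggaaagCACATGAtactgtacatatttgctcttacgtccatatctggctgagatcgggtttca
The related TCACGTG was in 5.41% of the windows of genes called higher and in 6.77% of those tested, and the shorter CACGTG that it contains was in 10.4% and 11.4%. None of the 3 Tfeb windows held any of the searched motifs. A match is a description of the letters only.

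Lysosomal and autophagy genes moved upward by small amounts. Of 50 tested members, 28 were higher and 4 lower at an adjusted p under 0.05, but only 2 passed the 2-fold threshold, and the median was 0.15; with scaling by total counts alone the 28 became 20. Ctsk, the collagen-degrading cathepsin K, was at 163, 155 and 151 CPM and 533, 572 and 582 CPM, with no overlap and a change of 1.84 (SE 0.05, edgeR adjusted p = 3.5e-20). Atp6v0d2, a proton pump subunit enriched in osteoclasts and macrophages, rose from 3.68, 2.30 and 2.90 CPM to 25, 26.5 and 28.9 CPM (3.18, SE 0.14). Just below or well below the fold threshold were Npc1, a lysosomal cholesterol transporter (1.00), Ctsb, a cysteine cathepsin (0.71), Atp6v1b2, another pump subunit (0.66), and Sqstm1, an autophagy receptor (0.58). Ctsk and Atp6v0d2 are also macrophage and osteoclast genes, and of 13 tested markers of those cells 7 were higher and none lower at an adjusted p under 0.05 (5 higher with total counts alone), with 1 called (Ctsk). The others were Csf1r (0.42), Itgam (0.57), Cd68 (0.29), Mpeg1 (0.20), Lyz2 (0.18) and Acp5 (0.96). Their summed level was 449.6 to 470.1 CPM against 869.7 to 945.1 CPM, with Ctsk counted in it. The leukocyte gene Ptprc (0.21) and the macrophage gene Adgre1 (0.06) did not pass the test, and Mmp9, Dcstamp, Ocstamp, Calcr and Aif1 were too low to test. In such bulk libraries a change in the share of cells of a type and a change in RNA per cell cannot be told apart.

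**Figure D2:**
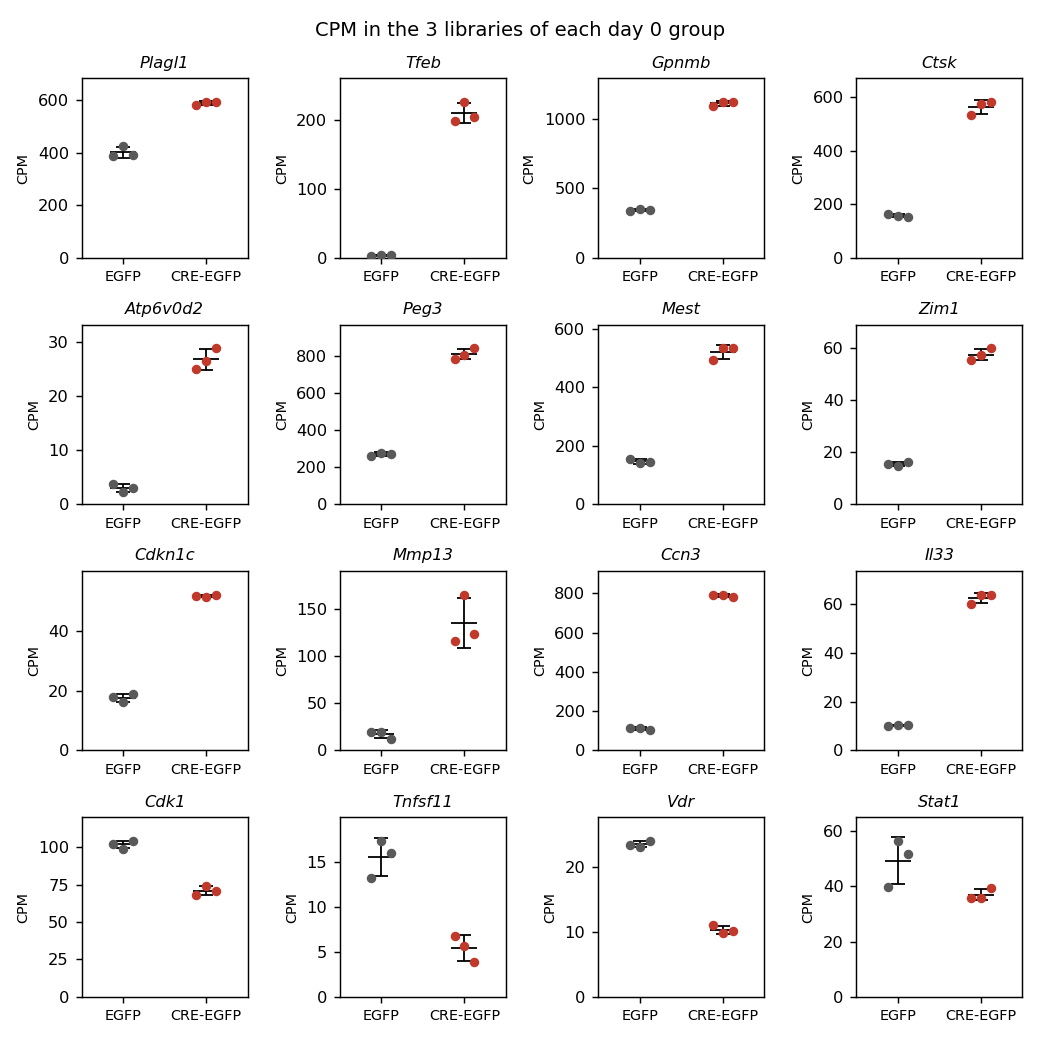
CPM of 16 genes in each day 0 library (points), with the mean and SD of the 3 libraries of a group (bars), each panel on its own axis from 0. Plagl1 is higher in the Cre-labelled libraries, Tfeb, Gpnmb, Ctsk and Atp6v0d2 are separated without overlap, and Cdk1, Tnfsf11 and Vdr are lower.

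Most tested imprinted genes, the set PLAGL1 is best known for, changed by less than 2-fold. Of the 52 listed genes, 9 were not in the table, H19 and Meg3 among them. Of 37 tested members, 5 were called higher and none lower, and 12 were higher and 4 lower at an adjusted p under 0.05, with a median of 0.07. Mest, a paternally expressed hydrolase-fold gene, was at 154, 140.2 and 143 CPM and 492, 532 and 533 CPM (1.83, SE 0.04, edgeR adjusted p = 1.3e-20). Peg3, a paternally expressed zinc finger gene, was at 257, 275 and 272 CPM and 783, 805 and 839.5 CPM (1.59, SE 0.04). Both were tightly grouped within each infection and did not overlap. Zim1, a zinc finger gene in the same domain of chromosome 7 as Peg3, was at 15.4, 14.6 and 16 CPM and 55.4, 57.2 and 59.9 CPM (1.90, SE 0.07). Cdkn1c, the maternally expressed cyclin-dependent kinase inhibitor p57, was at 17.9, 16 and 18.7 CPM and 51.7, 51.2 and 52.1 CPM (1.56, SE 0.06). Usp29, which shares its start region with Peg3, was the last of the 5 (1.49), at a low level of 0.63 ± 0.05 and 1.79 ± 0.52 CPM. In contrast the growth factor gene Igf2 was at 771, 725 and 734 CPM and 767, 785 and 802 CPM, overlapping, and did not pass the test (0.08, adjusted p = 0.18). Its receptor gene Igf2r (0.01) and the adaptor gene Grb10 (-0.01) did not pass it either, and Dlk1 changed by 0.32 and the proteoglycan gene Dcn by 0.74.

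The letters GGGGCCCC, the core of the motif PLAGL1 is known to bind, read the same on both strands and were found in 7 of 259 windows of genes called higher (2.7%), none of 58 called lower, 1.81% of those tested and 1.25% of all symbols. Peg3 and Usp29 hold the same match, since their windows overlap and run in opposite directions. Of the windows of tested imprinted genes 3 of 30 held a match, with that of Ppp1r9a, which was not called, as the third. Peg3 (chr7:6730563-6730669, minus strand, GRCm38.p6) and Nrk (chrX:138914235-138914342, plus strand), a kinase gene described below, are shown as called genes that hold it, 201 and 145 bases before the start, with the match in capitals.
Peg3: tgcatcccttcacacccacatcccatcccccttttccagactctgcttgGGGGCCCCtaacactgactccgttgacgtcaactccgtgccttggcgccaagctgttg
Nrk: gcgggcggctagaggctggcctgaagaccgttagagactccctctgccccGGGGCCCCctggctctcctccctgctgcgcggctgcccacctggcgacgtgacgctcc
No such match was in the windows of Mest, Zim1 or Tfeb.

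Several secreted proteases rose. Of 32 matrix proteases and inhibitors tested, 5 were called higher and none lower, with 15 higher and 11 lower at an adjusted p under 0.05. Mmp13, collagenase 3 of cartilage and bone, went from 19.5, 19.3 and 12.5 CPM to 116, 165 and 123 CPM without overlap (2.98, SE 0.12, edgeR adjusted p = 1.9e-15). Mmp10, a stromelysin, was at 5.62, 5.81 and 6.30 CPM and 28.1, 29.7 and 32.4 CPM (2.34, SE 0.12). Its relative Mmp3 changed by 1.19 and the elastase gene Mmp12 by 1.34 (SE 0.22), and Ctsk, above, was the fifth. These 4 metalloproteinase genes lie in 1 cluster on chromosome 9. All of them hold the AP-1 site TGAGTCA, searched on both strands, in the promoter window. So did 33 of 259 windows of genes called higher (12.7%), 6 of 58 called lower (10.3%), 4.77% of tested genes and 5.95% of all symbols, and 6 of 21 windows of tested proteases and inhibitors. The sites lie 35 (Mmp13, chr9:7272429-7272535), 63 (Mmp10, chr9:7502229-7502335), 46 (Mmp3, chr9:7445726-7445832) and 44 (Mmp12, chr9:7347280-7347386) bases before the start, all on the plus strand of GRCm38.p6 as printed, with the site in capitals and reversed in Mmp13.
Mmp13: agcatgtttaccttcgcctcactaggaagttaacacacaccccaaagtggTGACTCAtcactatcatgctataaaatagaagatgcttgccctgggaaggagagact
Mmp10: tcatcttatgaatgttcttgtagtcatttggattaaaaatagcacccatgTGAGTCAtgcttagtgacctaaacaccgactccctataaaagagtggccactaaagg
Mmp3: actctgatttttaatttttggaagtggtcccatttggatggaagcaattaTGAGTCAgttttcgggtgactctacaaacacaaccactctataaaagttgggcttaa
Mmp12: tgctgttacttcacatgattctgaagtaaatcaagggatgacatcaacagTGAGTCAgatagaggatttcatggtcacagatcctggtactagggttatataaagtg
Gpnmb and Olr1 also hold the site. Among 30 tested immediate early genes, which include the AP-1 subunits, 1 was called higher and none lower. At an adjusted p under 0.05 alone, 6 were higher and 13 lower. The called gene was Dusp4, a phosphatase of MAP kinases, at 28.8, 27.5 and 26.9 CPM and 109, 109 and 112 CPM (1.99, SE 0.06).

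Secreted signals rose at some genes and fell at others. Ccn3, a matricellular protein of the CCN family and the gene with the smallest adjusted p of the comparison, was at 114, 116 and 103 CPM and 793, 794 and 780.3 CPM. The 3 Cre-labelled libraries differed from each other far less than from the EGFP-labelled ones (2.83, SE 0.04, edgeR adjusted p = 4.5e-24). Il33, a nuclear cytokine released on cell damage, was at 10.1, 10.5 and 10.4 CPM and 60, 63.8 and 63.6 CPM (2.60, SE 0.08). Of 32 tested cytokines and chemokines 5 were called higher and 1 lower, with a median of -0.04. The monocyte chemokines Ccl7 (2.22), Ccl2 (1.41) and Ccl8 (4.84) rose, Ccl8 from 0.0646, 0.0639 and 0.123 to 2.80, 3.30 and 1.80 CPM. The eosinophil chemokine Ccl11 was the remaining one (2.0), at under 1 CPM in every day 0 library, and it lost the call without Cre-labelled replicate 2 or 3 or EGFP-labelled replicate 2 or 3. Cxcl14 was the one that fell, from 19.4, 21.3 and 20.4 CPM to 7.48, 9.82 and 8.80 CPM (-1.23, SE 0.11). The platelet chemokine gene Ppbp, on the list of blood cell markers, fell too (-1.17, SE 0.17).

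Wnt ligands and feedback genes contributed 5 of 41 tested members called higher and none lower. At an adjusted p under 0.05 alone 10 were higher and 7 lower, against 15.8% and 13.5% of all tested genes, and the median was -0.09. The feedback inhibitors Nkd2 (19.6, 21.5 and 22.5 CPM and 56.2, 52.9 and 51.2 CPM, 1.33), Nkd1 (1.17) and Axin2 (1.46) rose together with the ligand Wnt4 (2.22). Wnt16 was called at under 1.5 CPM (1.25), and without EGFP-labelled replicate 1 the list had 3 called members in place of 5. The inhibitor gene Dkk2 (-0.96) and the ligand gene Wnt5b (-0.84) fell without reaching 2-fold. Among growth factors and receptors 4 of 46 were called higher, Ccn3, Kit, Angpt2 (1.38) and the VEGF receptor gene Kdr (2.59), and 1 lower, the EGF receptor ligand gene Areg (-1.20).

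Many genes of glycolysis, respiration and redox metabolism were higher, mostly by less than 2-fold. In the glycolysis and hypoxia list 23 of 36 were higher and 1 lower at an adjusted p under 0.05, with a median of 0.36, and 2 were called. Hk2, the inducible hexokinase, was at 79.3, 78.5 and 81.3 CPM and 208, 212 and 214 CPM (1.41, SE 0.05), and the hypoxia-responsive Ndrg1 changed by 1.38 (SE 0.06). Ugp2, which makes UDP-glucose, rose from 159, 161 and 151 CPM to 529, 599 and 587 CPM (1.86, SE 0.05). Of 45 oxidative phosphorylation genes 25 were higher and none lower at an adjusted p under 0.05, none called, with a median of 0.19 and changes no larger than 0.43. Ppargc1a, the coactivator PGC-1α that drives mitochondrial genes, rose from 2.84, 2.17 and 2.72 CPM to 19, 18.6 and 19.1 CPM (2.87, SE 0.15).

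In the NRF2 and glutathione list 22 of 35 were higher and 1 lower at an adjusted p under 0.05 (median 0.25), and the 4 called members were glutathione transferases. Gsta4 was at 54, 48.3 and 47.6 CPM and 136, 153 and 153 CPM (1.56, SE 0.06), and Gsta1 (2.24), Gsta2 and Gstt1 (2.04) were below 10 CPM. Gsta2 had 3 counts in the EGFP-labelled and 58 in the Cre-labelled libraries, a ratio of 18.8 with an exact 95% interval of 6.13 to 94.0 for counting error only. Gsta1 and Gsta2 are close copies, so reads could be split between them. Haem oxygenase Hmox1 (0.99) and peroxiredoxin Prdx1 (0.73) rose below the fold threshold. Of 15 adipocyte genes tested, 3 were called higher: Pparg, the regulator of fat cell formation (6.46, 6.39 and 6.92 CPM and 23.8, 24 and 25 CPM, 1.88), the lipase gene Lpl (32.5, 37.2 and 36.7 CPM and 89.9, 91.7 and 93.8 CPM, 1.37) and Plin4 (1.03), which lost its call without AdV-CRE-EGFP replicate 1 or AdV-EGFP replicate 3.

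Further genes rose outside the groups described so far. Nrk, a germinal centre kinase, went from 12.3, 11 and 11.9 CPM to 90.2, 104 and 90.1 CPM (3.01, SE 0.08). Pamr1, a secreted peptidase-like protein, went from 4.45, 3.0 and 4.63 CPM to 31.8, 31.5 and 27.6 CPM (2.90), Ppfibp2, a liprin, from 3.55, 2.43 and 2.35 CPM to 18, 17.9 and 18.8 CPM (2.72), and Clec2h, a lectin-like receptor gene, from 0.516, 0.766 and 0.741 CPM to 12.1, 11.7 and 12.8 CPM (4.16). All of these were separated without overlap. Elobl changed by 3.57 (SE 0.17). Efemp1, a fibulin of the extracellular matrix, rose from 343, 353 and 324 CPM to 706, 721 and 711 CPM (1.07, SE 0.04). Olr1, a receptor for oxidised lipoprotein, rose from 0.129, 0.447 and 0.185 CPM to 6.45, 6.59 and 8.41 CPM (4.78, SE 0.26). The largest fitted change was at Zfp968, a zinc finger gene with near-identical neighbours on chromosome 2, and it is uncertain. It had 0 counts in every EGFP-labelled library and 402, 252 and 165 in the Cre-labelled ones, at least 266-fold higher against a floor of 3 counts over the group, but within the induced groups it ranged from 0 to 322 counts in the Cre-labelled and from 19 to 726 in the EGFP-labelled libraries.

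Markers of other cell types were low, and some rose. Of 10 tested epithelial and keratinocyte markers 6 were called higher, with a summed level of 14.5 to 15.7 CPM in the EGFP-labelled and 119 to 126 CPM in the Cre-labelled libraries. Most of that sum was Crct1, a gene of the cornified envelope region of chromosome 3 (4.84, 4.85 and 6.30 CPM and 78.7, 85.6 and 84 CPM, 3.95), followed by Lce1g of the same region (2.51). Krt18 (4.15) and involucrin, Ivl (3.41), rose as well. The defining epithelial genes Krt5, Krt14, Krt8 and Epcam had between 0 and 17 counts in any day 0 library, and Cdh1 did not pass the test (0.10). Endothelial markers had 3 of 7 called higher (Kdr, Cdh5 at 2.41 and Vwf at 1.37), with summed levels of 6.79 to 10.9 CPM and 23.4 to 28.1 CPM, while Pecam1 had 2 to 8 counts a library. All 5 tested proliferin and prolactin genes rose, Prl2c2 by 1.98 and Prl2c3 by 1.53, with a summed level of 5.43 to 6.71 CPM and 20.9 to 21.97 CPM. Proliferin genes are near-identical copies, so their separate values are uncertain. Among skeletal muscle markers 1 of 10 was called, Pax3 (1.59), and none of 9 Schwann and glial markers was. The part of these cell types in the other results was not tested.

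Fewer genes of appreciable level fell, and bone-related signals stood among them. Tnfsf11, which encodes the osteoclast-inducing ligand RANKL, was at 13.2, 17.3 and 16 CPM and 6.69, 5.67 and 3.92 CPM, with no overlap (-1.51, SE 0.16, edgeR adjusted p = 6.7e-08). Vdr, the vitamin D receptor gene, was at 23.4, 23.2 and 24.1 CPM and 11.1, 9.82 and 10.2 CPM (-1.18, SE 0.08). Tnn, which encodes tenascin-W of bone-forming tissue, was at 76, 70 and 77.6 CPM and 38, 31.5 and 31.9 CPM (-1.14, SE 0.08). All 3 were lower in each of the Cre-labelled libraries than in any EGFP-labelled one.

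The osteoblast list had few calls and leaned slightly lower. Of 26 tested members 2 were called higher and 1 (Tnfsf11) lower, and the median was -0.13. At an adjusted p under 0.05 alone 6 were higher and 10 lower, against 15.8% and 13.5% of all tested genes. The summed level, mostly Col1a1, Col1a2, Sparc and Spp1, was 21780 to 22350 CPM in the EGFP-labelled and 18630 to 19290 CPM in the Cre-labelled libraries. The 2 called higher were Phospho1, a phosphatase of matrix mineralisation (1.54), and the homeobox gene Dlx3 (1.59). Runx2, the master regulator of osteoblasts, was at 44.4, 46.9 and 45.1 CPM and 49, 50.3 and 48 CPM, without overlap but not past the test (0.11, adjusted p = 0.15). Sp7, which encodes osterix, was at 3.68, 2.23 and 1.91 CPM and 2.01, 1.52 and 0.450 CPM, overlapping (-0.96, SE 0.36, edgeR adjusted p = 0.045). This low-level result was no longer past the threshold in 8 of 15 alternative settings. Among these were DESeq2, the 6 day 0 libraries alone and limma on FPKM with either pseudocount. The threshold was also lost without EGFP-labelled replicate 1, Cre-labelled replicate 2 or Cre-labelled replicate 3. Col1a1 fell slightly (-0.24, SE 0.05), as did osteopontin, Spp1 (-0.36), and the osteocyte gene Dmp1 did not pass the test (-0.20).

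Matrix genes showed the same small shifts. Among 49 collagen and matrix genes none was called, and 10 were higher and 24 lower at an adjusted p under 0.05 (median -0.13), with Col3a1 at -0.55, tenascin-C, Tnc, at -0.74 and periostin, Postn, at 0.78. In the IGF axis none of 24 was called, with 11 higher and 3 lower at an adjusted p under 0.05. The binding protein genes Igfbp3 (33.1, 34.4 and 32 CPM and 47.4, 46.7 and 48.5 CPM, 0.52) and Igfbp5 (143, 131 and 139 CPM and 202, 208 and 206 CPM, 0.57) rose, as did Gas6, a ligand of TAM receptors (0.44), and the insulin receptor substrate Irs2 (0.83). The BMP antagonist gene Chrdl1 did not pass the test (-0.13). Small leucine-rich proteoglycans (3 higher, 4 lower of 9) and TGF-beta and BMP genes (10 higher, 13 lower of 41) had no called member. Chondrocyte, tendon and mural lists had 1 called member each, Col9a3, Dpt and Abcc9, all under 2 CPM on day 0, and Col9a3 lost its call without AdV-CRE-EGFP replicate 1 or 3 or AdV-EGFP replicate 2 or 3. Cholesterol and fatty acid synthesis (7 higher, 4 lower of 33) and ATF4 and unfolded protein response genes (11 higher, 14 lower of 40) had none. Over all tested genes 15.8% were higher and 13.5% lower at an adjusted p under 0.05. C3 of complement, the histone gene H2ac8 and the glucocorticoid-responsive Klf15 and Fmo2 were called at under 2 CPM and each lost its call in 3 to 5 of the 6 fits that left out 1 library. The 11 tested reference genes had no called member, but 5 were higher and none lower at an adjusted p under 0.05 (median 0.10). Gapdh (0.27) and Hprt (0.32) passed the test, and Actb (0.04) did not.

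Cell cycle genes fell together by a small amount. None of 40 was called, but 36 were lower at an adjusted p under 0.05 and none higher, with a median of -0.41. The summed level was 3413 to 3469 CPM in the EGFP-labelled and 2583 to 2663 CPM in the Cre-labelled libraries. Cdk1, the mitotic kinase, was at 102 ± 2.6 CPM and 71 ± 3.2 CPM (mean ± SD, n = 3 and 3), a change of -0.52 with no overlap. Cdc20 (-0.68), cyclin B1, Ccnb1 (-0.48), topoisomerase Top2a (-0.51) and the proliferation marker Mki67 (-0.37) all fell. Of 38 p53 targets 11 were higher and 8 lower at an adjusted p under 0.05 (7 and 9 with total counts alone), and 1 was called, Gdf15 (1.63). The shares of all tested genes at that adjusted p were 15.8% higher and 13.5% lower.

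Many interferon-stimulated genes were lower. Of 46 tested members 6 were called lower and none higher, and 25 were lower and none higher at an adjusted p under 0.05, with a median of -0.55. The called members were Ifi44, Iigp1, Dhx58, Ifi27l2a, Oasl2 and Rsad2, of which Ifi27l2a was under 1 CPM in every day 0 library and lost its call without AdV-CRE-EGFP replicate 3 or AdV-EGFP replicate 2. Ifi44 was at 6.0, 13.8 and 9.94 CPM and 3.53, 2.11 and 5.14 CPM (-1.46, SE 0.28), and Iigp1, an interferon-inducible GTPase, at 4.0, 7.73 and 6.79 CPM and 2.37, 1.78 and 2.63 CPM (-1.44, SE 0.33). Dhx58, an RNA sensor of the RIG-I family, changed by -1.27 (SE 0.26). AdV-EGFP replicate 1 had the lowest Ifi44, Iigp1 and Dhx58 of its group. The number called moved with single libraries, from 6 to 10 without AdV-EGFP replicate 1 and to 3 without AdV-EGFP replicate 2, in which case the 25 became 16.

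**Figure D3:**
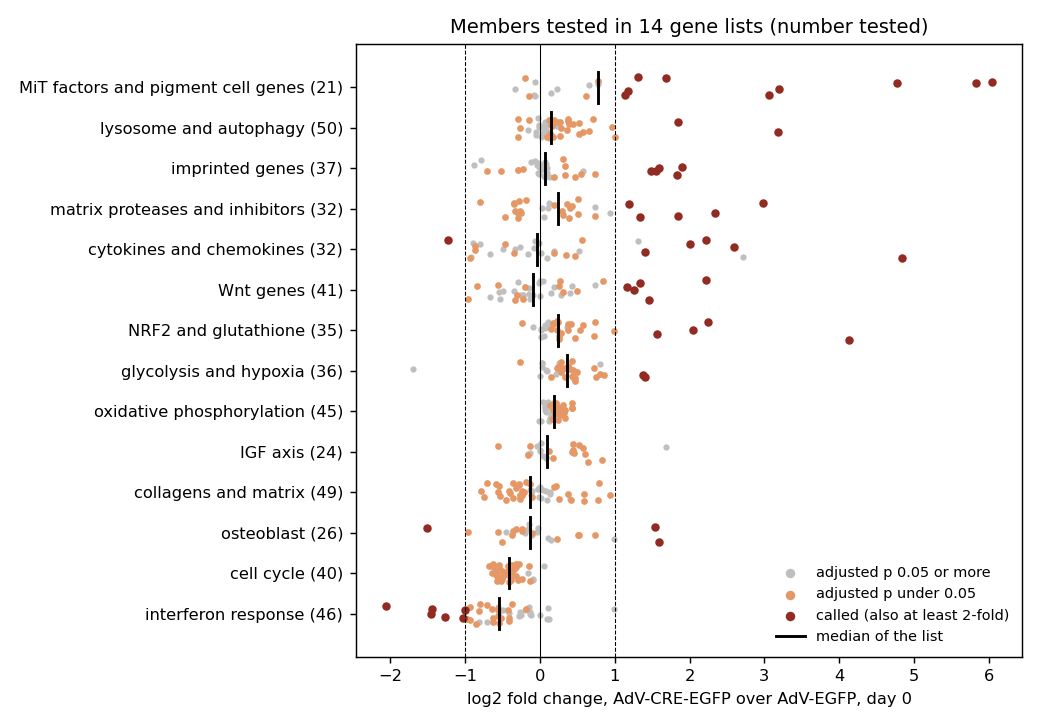
Log2 change on day 0 (horizontal axis, Cre-labelled minus EGFP-labelled) of every tested member of 14 gene lists (points, 1 row a list), with the median of each list marked. The pigment cell list reaches farthest to the right, the cell cycle list lies mostly below 0 with a median of -0.41, and the interferon list has a median of -0.55.

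The same infections were compared after induction, in libraries that share none with day 0. These libraries differ from day 0 both in the inducing medium and in 4 days of culture, and the effects of medium and time cannot be told apart. In the induced libraries 336 genes (2.46%) were higher and 357 (2.61%) lower, so lower calls were 357 after induction against 76 on day 0. The genes higher in both numbered 134, which is 37.6% of the day 0 list and 39.9% of the induced one, and those lower in both 12 (15.8% and 3.36%). The genes called higher on day 0 had a median change of 1.68 there and 0.74 after induction, with the same sign in 273 of 356. Those called lower had -1.34 and -0.46, with the same sign in 58 of 76. These genes were picked by the size of their day 0 change, so larger medians on day 0 are partly built into the choice. Opposite calls were made for 12 genes higher and 3 lower on day 0. Over all 13670 genes the correlation of the changes was 0.39, given as a description across genes, which are not replicates.

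A direct test of the difference between the day 0 and induced changes passed for 3115 genes (22.8%). Among them were 192 of the 356 called higher on day 0 (53.9%, of which 180 were larger on day 0) and 22 of the 76 called lower (28.9%). The choice of genes by their day 0 change also favours differences that are larger on day 0. Tfeb was still higher in the Cre-labelled libraries after induction but less so, at 4.33 ± 0.21 against 29.1 ± 2.9 CPM (SD, n = 3 and 3), and its day 0 change exceeded the induced one by 3.08 (SE 0.19, edgeR adjusted p = 5.3e-12). The pigment cell and MiT list as a whole did not shrink, with 10 of 21 members called higher after induction and a median of 0.90. Of its members, 7 passed the test of the difference. Mest (0.21, past the test), Zim1 (0.03) and Cdkn1c (0.04) changed little between the infections after induction, with differences of 1.63, 1.88 and 1.51. At that time Cdkn1c was at 513 ± 9.4 CPM in the EGFP-labelled and 529 ± 6.1 CPM in the Cre-labelled libraries, far above its day 0 levels in both. Il33 (0.12) and Gsta4 (0.00) did not pass the test after induction.

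Some genes changed in opposite directions at the 2 times. Mmp13 was lower in the Cre-labelled libraries after induction, at 388 ± 33 against 213 ± 9.1 CPM (-0.86), a difference of 3.84 (SE 0.16, edgeR adjusted p = 3e-15) from its rise on day 0. Igfbp3 (-1.85 after induction), Igfbp5 (-1.28) and Gas6 (-0.97) fell there, with differences of 2.37, 1.85 and 1.41. Igf2 (-1.06), Chrdl1 (-1.64) and Dmp1 (-2.78), which did not pass the test on day 0, were lower after induction, with differences of 1.14, 1.51 and 2.58. The cell cycle list had a median of 0.06 after induction and 32 of its 40 members passed the test of the difference, against 22.8% of all tested genes. By contrast Crct1 (3.64), Nrk (2.83), Ugp2 (1.88) and Hk2 (1.45) were higher in the Cre-labelled libraries at both times, with differences of 0.31, 0.18, -0.02 and -0.04 (SE 0.18, 0.11, 0.07 and 0.07) that did not pass the test. The interferon list had medians of -0.55 on day 0 and -0.73 after induction, and 5 of its 46 members passed it, fewer than the 22.8% of all tested genes.

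**Figure D4:**
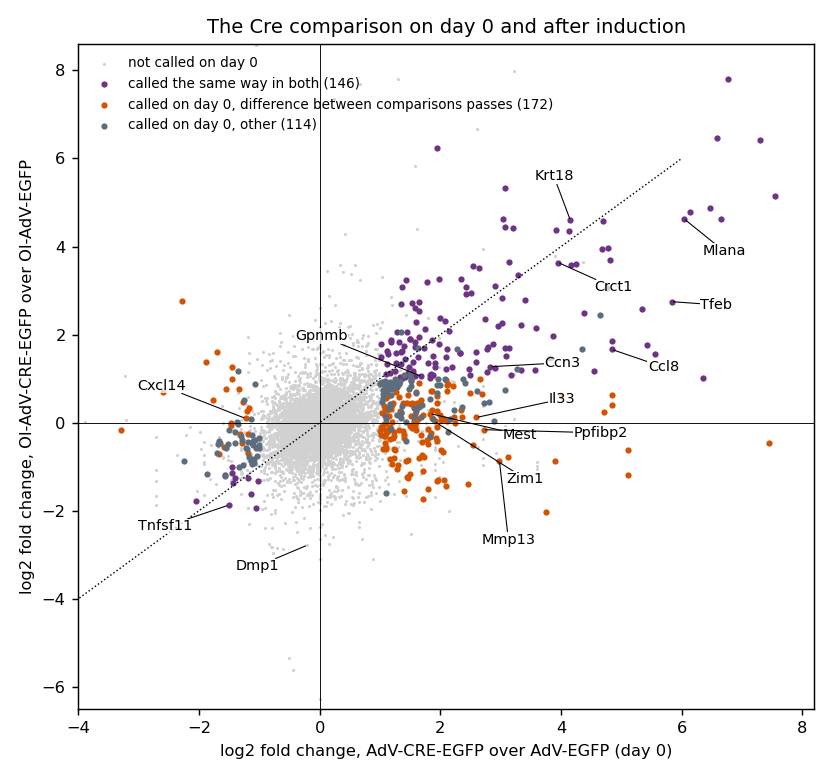
Log2 change between the infections after induction (vertical axis) against that on day 0 (horizontal axis) for the tested genes, with the dotted line marking equal changes; 8 genes lie outside the axes. Coloured are 146 genes called the same way in both, 172 other genes called on day 0 that pass the test of the difference, and 114 further genes called on day 0.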

How the data were processed

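RNA-seq libraries of 12 samples were sequenced and processed by the authors. The deposited table holds, per library, read counts for each gene and FPKM (fragment counts scaled for transcript length and library depth). The submitters' processing notes name cutadapt, HISAT2, HTSeq and GRCm39. The annotation release and whether counting used strand are not given in the sources used here, so overlapping and antisense genes could share reads. Between 1646 and 1844 genes per library have deposited counts that are not whole numbers, so the values were treated as estimated counts and rounded to whole numbers. The total counts of the 6 day 0 libraries give the depth, and intervals and floors cover counting error only.

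All 12 libraries were fitted together as 4 group means with edgeR 4.0.16 (TMM scaling, its filter on low counts, quasi-likelihood test) in R 4.3.3, and p-values were adjusted over the 13670 genes tested. A gene was called at a log2 change of 1 or more in size with an adjusted p under 0.05, the thresholds the study's methods state. The difference between the day 0 and induced comparisons was the interaction contrast of the same fit. Replicates of a group differed by more than sampling noise (chi-square per gene 2.18 to 5.24), and each counted as 1 sample. Alternatives were DESeq2 1.42.0, limma 3.58.1 on log2(FPKM + 1) and log2(FPKM + 0.1), computed from the deposited FPKM, other scalings, no filter, the 6 libraries alone, a replicate block and leaving out each day 0 library.

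The genes named were Plagl1 and its relatives, the genes the study names, the largest changes at 10 CPM or more without overlap, up to 12 in each direction (12 higher and 5 lower), the 6 called genes of highest level, up to 4 called members of each of 41 gene lists, the 8 largest differences from the induced comparison in each direction and 3 reference genes. Further list members were named to show each list's range. Members and lists were chosen with earlier results of these data known. Gene models with only clone names (11 called by these rules) were not named. Gene positions are those of GENCODE M39 on GRCm39. Promoter windows are from RefSeq, GRCm38.p6.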

Additional observations from a re-analysis of the deposited data

Results flagged for a closer look

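For 46 of the named genes the change between the infections on day 0 differed from that after induction, by the interaction test of the edgeR fit and by at least 1 on the log2 scale. Named genes were chosen in part by this same difference and in part by a call on day 0. The number and the direction of these differences therefore follow partly from the choice. Values in brackets are the day 0 change minus the induced change. Among genes of transcription and signalling these were Tfeb (3.08), Pax3 (1.57), Dlx3 (1.28), Ppargc1a (1.09), Kit (1.70), Kdr (1.21), Angpt2 (1.58), Cnr1 (2.31) and Gas6 (1.41). Secreted cytokines and stress signals were Il33 (2.48), Ccl7 (1.39), Ccl8 (3.18), Ccl11 (2.62) and Gdf15 (1.55). Wnt genes were Wnt4 (2.08), Wnt16 (1.89) and Nkd2 (1.06).

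Imprinted genes were Igf2 (1.14), Mest (1.63), Zim1 (1.88) and Cdkn1c (1.51), and the IGF binding proteins were Igfbp3 (2.37) and Igfbp5 (1.85). Matrix and matricellular genes were Mmp13 (3.84), Ccn3 (1.56), Ndnf (2.68), Pamr1 (1.68), Chrdl1 (1.51), Dmp1 (2.58), Dpt (2.30) and Col9a3 (2.13). Glutathione transferases were Gsta1 (2.25), Gsta4 (1.56) and Gstt1 (2.71). Further genes of membranes and of other kinds were Atp6v0d2 (2.10), Abcc9 (2.83), Stab2 (2.08), Clec14a (1.66), Ppfibp2 (2.88) and Elobl (2.39). Zfp968 had 12.09, which rests on 0 counts in all EGFP-labelled day 0 libraries and on induced groups that ranged from 0 to 322 and from 19 to 726 counts.

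The difference was negative at H2ac8 (-3.30), Ppbp (-1.49), Cxcl14 (-1.32), Prl2c2 (-1.27) and Prl2c3 (-1.19). Of these, Prl2c2 and Prl2c3 rose on both occasions and more after induction, while Cxcl14 and Ppbp fell on day 0 and did not pass the test after induction. H2ac8 was called lower on day 0 (0.57 against 0.17 CPM) and higher after induction (0.23 against 0.71 CPM), EGFP-labelled first. It was thus near the floor throughout, and its day 0 call was lost in 9 of 14 alternatives. Dixon's test was not applied, since each group has 3 libraries.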

How the results depend on the processing

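The counts of 356 higher and 76 lower genes stayed within 1.5 times under other scalings (median-of-ratios 349 and 80, total counts 339 and 93), without the filter (395 and 108 of 18101 genes), with DESeq2 (341 and 69) and in the 6 libraries alone (305 and 62), where no test of the difference between comparisons is possible and 6 genes were lower in both comparisons instead of 12. Testing against a 2-fold change left 152 higher and 1 lower on day 0, 128 and 101 after induction, and 59 and 1 in both, and Plagl1 (0.55) had an adjusted p of 1. With limma on log2(FPKM + 1) the counts were 115 and 8 on day 0, 111 and 131 after induction, and 46 and 1 in both. With log2(FPKM + 0.1) they were 228 and 43 on day 0 and 208 higher after induction. A pseudocount compresses the changes of low genes by construction. Leaving out each day 0 library in turn gave 328 to 343 higher and 71 to 99 lower on day 0, 353 to 364 and 361 to 365 after induction, 132 to 140 and 10 to 16 in both, 2722 to 3060 differences between the comparisons, and 0.51 to 0.58 for Plagl1. The 99 lower genes came without AdV-EGFP replicate 1.

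Same-numbered replicates of the 2 infections did not deviate together on day 0 (correlations -0.01, 0.04 and 0.02). The labels do not state whether replicates of the same number were paired, and these correlations cannot show it. With a replicate block 351 genes were higher and 76 lower, of which 349 and 73 were among the main calls. Of 98 named genes, 53 kept their direction and their side of the threshold under every alternative, and of 1451 values 122 lost the threshold. Signs turned at Actb (-0.0065 with total counts, -0.016 with either FPKM setting) and Plagl2 (0.045 without AdV-EGFP replicate 3, in a range of -0.135 to 0.045 over the left-out libraries), none past the threshold. Depth limits the 14 called genes with no count in the EGFP-labelled group, whose fitted changes depend on the prior count.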

Other observations

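Some genes that changed between the infections belong to none of the groups above. Ndnf, a secreted factor of neurons and vessels, was at 12.5, 12.7 and 12.3 CPM in the EGFP-labelled and 35.1, 38.8 and 32.2 CPM in the Cre-labelled libraries on day 0 (1.5, SE 0.08), and changed by -1.18 after induction. Cnr1, the cannabinoid receptor gene, was at 6.46, 5.68 and 7.04 CPM and 16.6, 17.1 and 18.2 CPM (1.43, SE 0.12), and changed by -0.88 after induction. Both were thus higher on day 0 and lower later under the same label. Megf10, an engulfment receptor gene, was at 27.8, 28.9 and 28.2 CPM and 68.4, 69.2 and 69.9 CPM (1.29, SE 0.06) and changed by 2.07 after induction. Serpinb9b, a serine protease inhibitor gene, was at 44.5, 44.5 and 45.6 CPM and 91.2, 93.2 and 89 CPM (1.02, close to the 2-fold threshold) and changed by 1.79, and Ttll11, a tubulin polyglutamylase gene, by 1.18 on day 0 and 1.82 later. These 3 rose at both times. S100a8, a calcium-binding protein gene of neutrophils, had 3 counts in the EGFP-labelled and 69 in the Cre-labelled libraries on day 0, a ratio of 22.4 with an exact 95% interval of 7.36 to 111 for counting error only.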
